A study of Mus musculus with 6 samples.

Results

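Rab GTPases are small switch proteins that give membranes inside the cell their identity. A Rab is prenylated at its C terminus so that it can sit in a membrane, is turned on there by an exchange factor that loads GTP, binds effectors such as tethers and motors while it is on, is turned off by a GTPase-activating protein, and is then pulled out of the membrane by a GDP dissociation inhibitor to be used again. Each member works on a certain route, such as transport from the endoplasmic reticulum to the Golgi, secretion, entry through early endosomes, recycling to the cell surface or delivery to lysosomes. In a secretory epithelium such as that of the oviduct these routes carry glycoproteins to the lumen and return receptors and junction proteins to the surface.

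The Rab genes were taken by symbol, as Rab followed by a number and at most 1 letter and 1 further digit, which gave 57 of the 22800 gene symbols. Their RNA was compared between early and late passages of 1 murine oviductal epithelial (MOE) cell line. The line was pooled from several oviducts of 8-week-old female mice of the outbred CD1 strain, carries no added oncogene or targeted allele, and received no treatment that differed between the groups. Libraries of passages 8, 9 and 10 form the early group, MOE LOW, and those of passages 90, 103 and 113, reached by long continuous passaging, form the late group, MOE HIGH, with 1 library per passage. The 3 libraries of a group are thus passages of 1 culture lineage, and p-values measured the spread between passages and not between animals. Values are FPKM, fragment counts scaled to transcript length and to the mapped fragments of the library, which can therefore be compared between genes. Where 6 values are listed below, they run from passage 8 to passage 113.

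The libraries resembled each other most within groups, with Pearson's r of log2(FPKM + 1) from 0.981 to 0.985 within MOE LOW, from 0.972 to 0.987 within MOE HIGH and from 0.835 to 0.873 between groups. The keratin genes Krt18, Krt19 and Krt8 were expressed in all 6 libraries. Krt18 rose from 798 ± 25.3 to 2029 ± 531 FPKM (limma adjusted p = 0.0011), and Krt7 rose at a low level (log2 fold change 0.97, limma adjusted p = 0.0097). Krt19, at 850 ± 201 and 663 ± 165 FPKM, and Krt8, at 47.1 ± 7.40 and 40.6 ± 16.5 FPKM, did not pass. Their log2 fold changes were negative (-0.36 and -0.29). The summed level of the 9 epithelial markers was 1445 to 1833 FPKM in MOE LOW against 2048 to 3209 FPKM in MOE HIGH, whereas their members Epcam, Cdh1, Cldn3, Cldn4 and Cldn7 were at or under 0.156 FPKM in every library. The oviductal secretory markers Pax8 and Ovgp1 did not pass (log2 fold change -0.12 and 0.01). Of 4 ciliated markers 3 were tested, and they did not move together. Foxj1 rose from 0.439 ± 0.0963 to 2.79 ± 0.638 FPKM, Rsph1 fell from 2.58 ± 1.02 FPKM to 0, and Ccdc39 did not pass. Marker levels of several other cell types moved with the groups. All 4 tested of 5 smooth muscle markers fell, and the summed level of the list was 7687 to 11031 FPKM in MOE LOW against 9.33 to 17.9 FPKM in MOE HIGH. Of 7 fibroblast and stromal markers 6 were tested and 5 fell, with a sum of 592 to 981 FPKM against 22.4 to 32.7 FPKM, while both tested mesothelial markers of 3 rose, with a sum of 18.7 to 29.8 FPKM against 214 to 300.0 FPKM. Of 4 endothelial markers Cdh5 was listed at 0 in all 6 libraries, and Kdr, the only one tested, fell, with 1.87 to 3.64 FPKM in MOE LOW against at most 0.00998 FPKM in MOE HIGH (limma adjusted p = 6.4e-05). Of 5 leukocyte markers Emr1 and Itgam were listed at 0 throughout, Csf1r rose from 0.642 ± 0.150 to 1.61 ± 0.611 FPKM (limma adjusted p = 0.013), and Cd68 was at 1.71 ± 0.397 and 1.53 ± 0.189 FPKM. Of the called markers, Kdr, Des, Col1a2, Pdgfra, Pdgfrb and Rsph1 reached the minimum mean for testing, 0.5 FPKM, only through MOE LOW. Foxj1 reached it only through MOE HIGH, and such genes had to differ. The part of these marker changes in the Rab values was not tested, and in RNA from a whole culture fewer cells of a type and less RNA per cell cannot be told apart.

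As a family the Rab genes were lower in MOE HIGH. The summed level of the 57 genes was 1740, 1651 and 1667 FPKM in MOE LOW against 1330, 1320 and 1385 FPKM in MOE HIGH, or 1686 ± 47.4 against 1345 ± 35.1 FPKM (SD, n = 3 passages). Of all FPKM in a library, Rab genes held 0.254%, 0.244% and 0.267% in MOE LOW against 0.173%, 0.183% and 0.232% in MOE HIGH, so the 3 later libraries were each below the 3 earlier ones on both scales, with passage 113 the nearest to MOE LOW. A mean of at least 0.5 FPKM over the 6 libraries was reached by 43 Rab genes, which were tested with the other genes of the table by limma on log2(FPKM + 1), at a Benjamini-Hochberg adjusted p of 0.05. By this test 25 Rabs were lower (58.1% of the 43, where 32.1% of all 11621 genes tested were lower), 5 were higher (11.6%, against 24.3% of all genes) and 13 did not pass. Ranges of the groups were separate for 33 of the 43 Rabs (76.7%, against 64.0% of all genes). Their median log2 fold change was -0.51, beside -0.05 over all genes tested, and 32 of 43 values were negative. The filter bears on this count, since Rab6b and Rab3b reached the minimum only through MOE HIGH and Rab36 only through MOE LOW, and such genes had to differ.

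**Figure D1:**
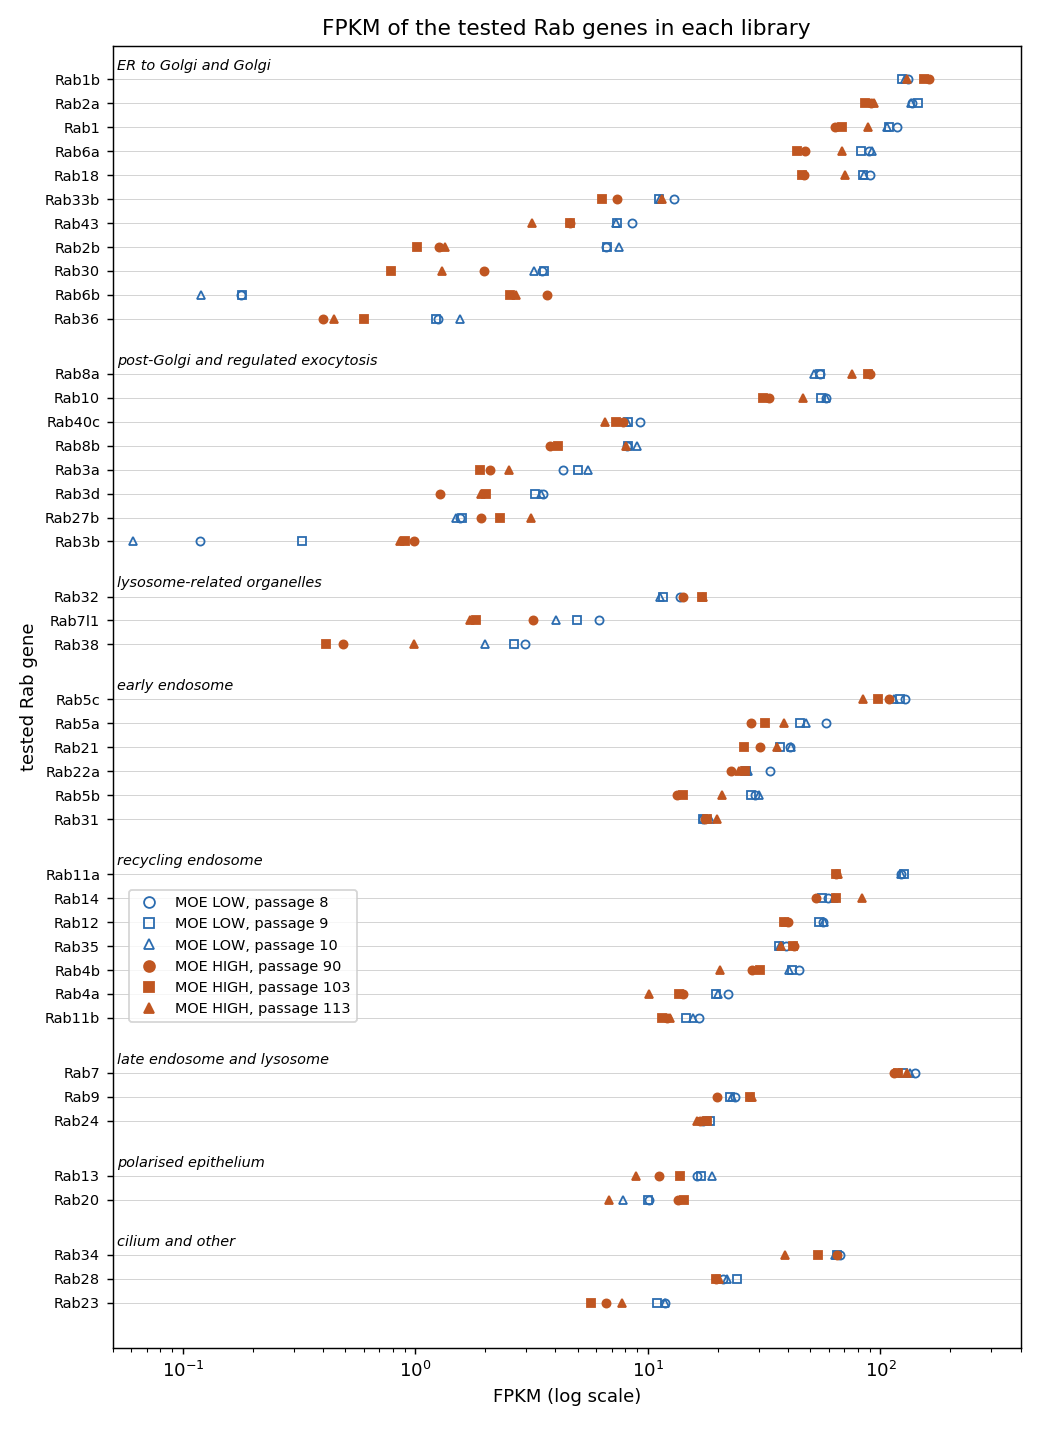
FPKM (log axis) of the 43 tested Rab genes in each of the 6 libraries, with the genes grouped by the route they work on and ordered by mean level within a route. Open blue symbols are the early passages 8, 9 and 10 (MOE LOW) and filled orange symbols the late passages 90, 103 and 113 (MOE HIGH). The orange symbols lie to the left of the blue ones for most genes, and to the right without overlap for Rab6b, Rab3b, Rab8a, Rab27b and Rab32.

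The most abundant Rabs worked on several routes. By mean over the 6 libraries the first was Rab1b, which acts with Rab1 in transport from the endoplasmic reticulum to the Golgi, at 131, 124, 127, 162, 154 and 129.7 FPKM. Rab7, the Rab of late endosomes and lysosomes, was next at 141, 125, 134, 114, 118 and 130.1 FPKM. Neither passed the test, and the groups overlapped for both. Rab2a, of transport between the Golgi and the endoplasmic reticulum, was at 137, 146, 135, 91.2, 85.5 and 93.8 FPKM, Rab5c of early endosomes at 127, 121, 114, 108, 97.4 and 84.0 FPKM, and Rab11a of recycling endosomes at 122, 127, 123, 64.5, 64.1 and 65.9 FPKM. All 3 fell, and none of their MOE HIGH libraries reached the lowest MOE LOW library. The order of the family therefore differed between groups: Rab2a had the highest mean in MOE LOW (139 ± 5.82 FPKM), ahead of Rab7 (133 ± 8.15), Rab1b (127 ± 3.68), Rab11a (124 ± 2.43) and Rab5c (121 ± 6.33), and each pair of neighbours differed by less than the larger SD of the pair. In MOE HIGH it was Rab1b (149 ± 16.8 FPKM), then Rab7 (121 ± 8.39), Rab5c (96.6 ± 12.3), Rab2a (90.2 ± 4.28) and Rab8a (84.6 ± 7.82), with Rab11a at 64.8 ± 0.969 FPKM. There the step from Rab1b to Rab7 and that from Rab7 to Rab5c exceeded the larger SD, and the next steps did not. In all, 11 Rabs had a mean of at least 50 FPKM.

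Secretory Rabs, which work between the endoplasmic reticulum, the Golgi, secretory vesicles and lysosome-related organelles, were 32 of the 57, and 22 of them were tested. Of these 22, 14 were lower, 5 were higher and 3 did not pass, with a median log2 fold change of -0.64. These are 63.6% lower and 22.7% higher, beside 32.1% and 24.3% of all genes. All 5 higher calls of the family were in this group. Among the 11 tested Rabs of the endoplasmic reticulum and Golgi 8 were lower and 1 was higher, and among the 8 tested Rabs of post-Golgi transport and regulated exocytosis 4 were lower and 3 were higher.

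Rab2b, a close relative of Rab2a, gave the largest fall among the 43 tested Rabs. Some untested Rabs near the floor had larger fold differences of the group means, such as Rab27a (206) and Rab40b (21.5). Rab2b was at 6.58, 6.67 and 7.50 FPKM in MOE LOW against 1.27, 1.01 and 1.34 FPKM in MOE HIGH, with all 3 later libraries near a common low level. The log2 fold change of Rab2b was -1.84 (± 0.11 SE, limma adjusted p = 7.7e-06), a 5.73-fold difference of the group means. Rab2b is the only tested Rab on chromosome 14, where the median log2 fold change over 377 tested genes was -0.32 and 46.2% were lower. The part of this chromosome-wide level in the value of Rab2b was not tested. The gene lies at chr14:52261759-52279545 of GRCm38 on the minus strand, and 64.0% of its exon bases are also exon bases of Gm43766 or Tox4 on the other strand. Its first exon overlaps an exon of Tox4, a gene for a chromatin-associated HMG box protein that runs the opposite way. Tox4 also fell, from 12.1 ± 0.272 to 5.88 ± 1.05 FPKM (log2 fold change -0.94, limma adjusted p = 0.00055). Whether the authors counted reads by strand is not given in the sources used here, so reads of the overlapping stretch cannot be assigned with certainty. Rab2a fell by less, with a log2 fold change of -0.62 (limma adjusted p = 0.00087). Within each library Rab2b therefore made up 4.59%, 4.38% and 5.27% of the summed Rab2a and Rab2b level in MOE LOW against 1.37%, 1.17% and 1.41% in MOE HIGH.

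Rab6a and Rab6b, which direct transport within the Golgi and back to the endoplasmic reticulum, moved in opposite directions. Rab6a (chr7:100607410-100641268, plus strand) was at 89.7, 82.9, 91.6, 47.3, 43.6 and 68.5 FPKM, a log2 fold change of -0.74 (± 0.17 SE, limma adjusted p = 0.0064). Passage 113 was well above the other late passages but still below MOE LOW. Rab6b (chr9:103111787-103185276, plus strand), known best from neurons, was at 0.177, 0.180, 0.119, 3.67, 2.56 and 2.72 FPKM, and its log2 fold change of 1.77 (± 0.13 SE, limma adjusted p = 1.8e-05) was the largest rise of the family, an 18.8-fold difference of the group means. Rab6b reached the minimum of 0.5 FPKM only through MOE HIGH and so had to differ. Rab6a remained the main form. Rab6b made up 0.198%, 0.217% and 0.130% of the summed Rab6 level in MOE LOW against 7.21%, 5.55% and 3.82% in MOE HIGH. No 50-base word of Rab6b was shared with another annotated gene, and 19.0% of the exon bases of Rab6a overlap Mrpl48 on the other strand. Mrpl48, for a mitochondrial ribosomal protein, did not pass the test (log2 fold change 0.05).

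Rab1 and Rab1b differed in their response. Rab1 was at 118, 109, 106, 63.5, 68.2 and 88.5 FPKM, a log2 fold change of -0.60 (± 0.14 SE, limma adjusted p = 0.0068), whereas Rab1b had a log2 fold change of 0.21 (95% interval -0.05 to 0.48). Rab1 was 45.5% to 47.4% of their sum in MOE LOW against 28.2%, 30.7% and 40.6% in MOE HIGH. The later libraries were all below the earlier ones, and passage 113 was the closest. Without passage 113 the fitted change of Rab1b was 0.31 and passed (limma adjusted p = 0.0094). Rab1b is the only tested Rab on chromosome 19, where the median log2 fold change over 403 tested genes was 0.70 and 65.8% of the genes were higher. The part of this chromosome-wide level in the value of Rab1b was not tested.

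The other tested Rabs of this route fell, apart from Rab33b. Rab18, of lipid droplets and the endoplasmic reticulum, had a log2 fold change of -0.68 and the Golgi Rabs Rab30 and Rab43 of -0.94 and -0.77. Rab36, a Golgi Rab at about 1 FPKM, had -0.66 and lost its call under quantile normalization (-0.12). It reached the minimum of 0.5 FPKM only through MOE LOW and so had to differ. Rab33b, which acts at the Golgi and in autophagy, was at 13.0, 11.2, 11.3, 7.38, 6.32 and 11.5 FPKM and did not pass (log2 fold change -0.48, limma adjusted p = 0.068). Passage 113 alone reached MOE LOW, and without it the value was -0.71 (limma adjusted p = 0.0014). For Rab43, 75.4% of exon bases are shared with Gm45140 on the same strand, so its level is uncertain.

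The Rab8 pair of post-Golgi Rabs moved in opposite directions. Rab8a carries vesicles from the Golgi to the cell surface and to the primary cilium, and Rab8b is its close relative. Rab8a (chr8:72161200-72183904, plus strand) was at 54.9, 54.8 and 51.8 FPKM in MOE LOW against 90.2, 87.9 and 75.7 FPKM in MOE HIGH, and was the only Rab with a mean of at least 50 FPKM that rose (log2 fold change 0.64, ± 0.10 SE, limma adjusted p = 0.0012). Rab8b (chr9:66843664-66919687, minus strand) was at 8.11, 8.21, 8.97, 3.80, 4.10 and 8.07 FPKM (log2 fold change -0.64, ± 0.23 SE, limma adjusted p = 0.047). In passage 113 Rab8b was just below the lowest MOE LOW library. Its call was lost in 13 of 17 alternative settings, and without passage 113 its value was -0.93. Rab8b made up 12.9% to 14.8% of the Rab8 sum in MOE LOW against 4.04%, 4.45% and 9.64% in MOE HIGH. Rab8a lies on chromosome 8, where the median over 636 tested genes was 0.29 and 44.8% were higher. Of the other tested Rabs there, Rab3a and Rab4a were lower and Rab20 did not pass.

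Because the Rab8 pair moved in opposite directions and Rab11a fell with the smallest standard error of the family, the sequence before their starts is shown, as the 250 bases upstream of the RefSeq start on GRCm38.p6, less any base in an annotated exon. Capitals mark the CCAAT box and the GC box (GGGCGG) on either strand. Rab8a is read from chr8:72160950-72161199 on the plus strand, Rab8b from chr9:66919706-66919955 on the minus strand, and Rab11a from chr9:64737759-64738006 on the minus strand.
Rab8a: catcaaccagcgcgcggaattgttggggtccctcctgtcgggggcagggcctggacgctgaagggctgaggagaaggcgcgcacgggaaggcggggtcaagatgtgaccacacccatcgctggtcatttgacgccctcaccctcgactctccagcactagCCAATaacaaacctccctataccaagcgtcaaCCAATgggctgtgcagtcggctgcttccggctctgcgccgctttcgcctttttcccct
Rab8b: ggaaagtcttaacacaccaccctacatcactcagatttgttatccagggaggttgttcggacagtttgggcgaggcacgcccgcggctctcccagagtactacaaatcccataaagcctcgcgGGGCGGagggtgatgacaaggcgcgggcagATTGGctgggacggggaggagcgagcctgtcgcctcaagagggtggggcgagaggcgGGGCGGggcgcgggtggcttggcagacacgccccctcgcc
Rab11a: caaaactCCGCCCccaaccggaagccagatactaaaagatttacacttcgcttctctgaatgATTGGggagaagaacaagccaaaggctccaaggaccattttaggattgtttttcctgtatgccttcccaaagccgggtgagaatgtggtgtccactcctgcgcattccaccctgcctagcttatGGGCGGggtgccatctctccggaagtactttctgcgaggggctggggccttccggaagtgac

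Rab8a held 2 CCAAT boxes and no GC box in this window, whereas Rab8b and Rab11a each held 1 CCAAT box and 2 GC boxes. The other motifs searched on both strands were the E-box (CACGTG) and the core of an element of the unfolded protein response (ACGTGG), and neither was found in these 3 windows. RefSeq entries were matched for 46 of the 57 Rabs, in 58 windows, since some Rabs had several. For 50 of the 58 the start matched an annotated transcript. The motif counts used the full 250 bases with exon bases kept, and 32 of the 58 windows overlapped an annotated exon. A GC box was present in 65.5% of the 58 Rab windows and in 32.7% of all 32851 windows of the same length, and a CCAAT box in 41.4% and 33.8%. The Rab windows were also richer in CpG sites, with a median of 15 against 6, and in GC content, with a median of 60.2% against 52.4%. Counted by gene, a Rab held a motif if any of its windows did, so these counts are not on the scale of the window shares. A GC box was held by 15 of the 18 lower, 2 of the 4 higher and 11 of the 13 Rabs that did not pass. A CCAAT box was held by 12 of the 18, 1 of the 4 and 6 of the 13. An E-box was present in at least 1 window of 5 of the 46 Rabs, and in 6.02% of all single windows. The other element was present in at least 1 window of 5 Rabs, and in 6.91% of all single windows. These last motifs can overlap, and a shared stretch then counts for both.

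Rab10, which moves glucose transporter vesicles and basolateral cargo, fell with a log2 fold change of -0.64, from 57.3 ± 1.61 to 36.9 ± 8.14 FPKM. Rab40c, an adaptor of a ubiquitin ligase, did not pass (-0.22, 95% interval -0.48 to 0.04).

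The Rab3 genes act in docking of secretory vesicles and were low in this line. Rab3a was at 4.29, 4.99, 5.50, 2.1, 1.89 and 2.54 FPKM, and Rab3d at 3.55, 3.28, 3.47, 1.28, 2.01 and 1.92 FPKM. Both fell, with log2 fold changes of -0.90 and -0.71, and the groups did not overlap. Rab3b was at 0.118, 0.327, 0.0613, 0.987, 0.902 and 0.857 FPKM and rose (log2 fold change 0.72, limma adjusted p = 0.0014). Rab3b reached the minimum of 0.5 FPKM only through MOE HIGH and so had to differ. Rab3c stayed at or under 0.00955 FPKM. Although every Rab3b value was under 1 FPKM, it made up 16.1% to 22.6% of the Rab3 sum in MOE HIGH, against 0.679% to 3.80% in MOE LOW.

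Rab27a and Rab27b tether secretory granules and lysosome-related organelles to the cell cortex. Rab27a was at 1.26, 0.947 and 0.659 FPKM in MOE LOW, at 0.0139 FPKM in passage 90, and was listed at 0 in passages 103 and 113. With a mean of 0.479 FPKM it was just under the minimum and was not tested. With no minimum it was called lower (limma adjusted p = 0.00077). Rab27b was at 1.55, 1.58, 1.5, 1.92, 2.30 and 3.13 FPKM (log2 fold change 0.42, limma adjusted p = 0.035), a call lost in 9 of 16 alternative settings. Rab27b made up 55.3%, 62.5% and 69.5% of the Rab27 sum in MOE LOW against 99.3% in passage 90, and it was the only Rab27 gene with a value above 0 in passages 103 and 113.

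**Figure D2:**
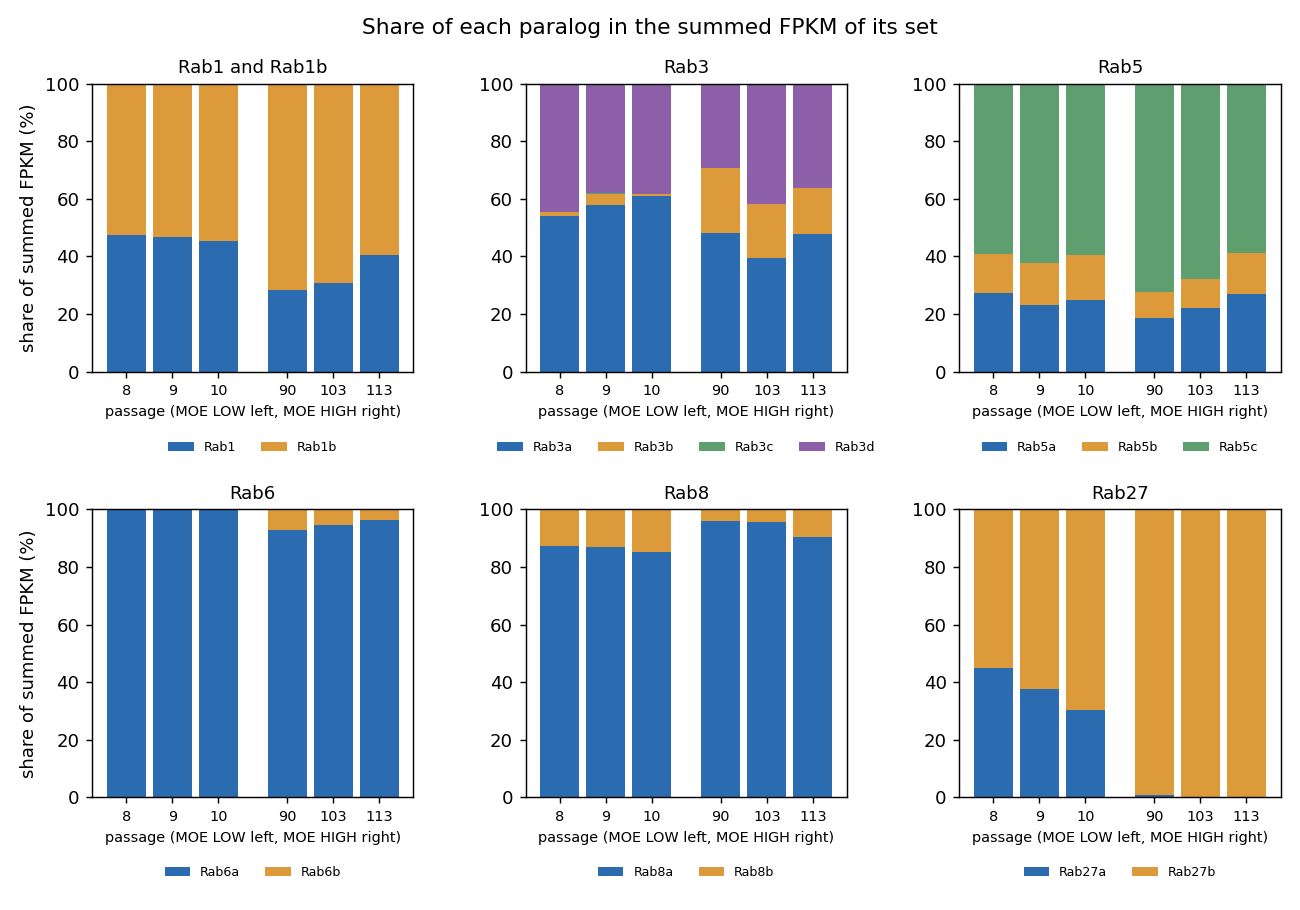
Share of each paralog (%) in the summed FPKM of its set, for Rab1 with Rab1b, Rab3, Rab5, Rab6, Rab8 and Rab27. Each bar is 1 library, with early passages (MOE LOW) on the left of each panel and late passages (MOE HIGH) on the right. Shares of the groups stayed apart for Rab1, Rab3b, Rab6b, Rab8b and Rab27a, and overlapped for all 3 Rab5 genes.

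The 3 tested Rabs of lysosome-related organelles did not move together. Rab38 and Rab32 both serve melanosome formation. Rab38 fell from 2.53 ± 0.496 to 0.628 ± 0.314 FPKM (log2 fold change -1.12, limma adjusted p = 0.00085), whereas Rab32 rose from 12.2 ± 1.35 to 16.1 ± 1.79 FPKM (0.37, limma adjusted p = 0.035), with a call lost in 8 of 17 alternative settings. Rab7l1, listed as Rab29 in current annotation and known for bringing the kinase LRRK2 to membranes, fell from 5.04 ± 1.06 to 2.25 ± 0.837 FPKM (-0.91, limma adjusted p = 0.0062).

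Endosomal Rabs were 18 of the 57, of which 16 were tested. By limma 0 were higher (0 also at an unadjusted p under 0.05), 9 were lower and 7 did not pass, with a median log2 fold change of -0.34. These are 56.2% lower and 0% higher, beside 32.1% and 24.3% of all genes. The lower calls were among Rabs of early endosomes (4 of 6 tested) and of recycling endosomes (5 of 7 tested), and 0 of the 3 tested Rabs of late endosomes and lysosomes passed the test or had an unadjusted p under 0.05.

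Rab5 proteins drive fusion of early endosomes, and all 3 genes fell. Rab5b was at 28.8, 27.9, 29.9, 13.4, 14.1 and 20.8 FPKM (log2 fold change -0.83, ± 0.16 SE, limma adjusted p = 0.0032), and Rab5a at 58.4, 45.1, 48.0, 27.8, 31.9 and 38.5 FPKM (-0.62, ± 0.15 SE, limma adjusted p = 0.0090). Rab5c, the most abundant of the set, had the smallest change (-0.32, limma adjusted p = 0.048), and its call was lost in 10 of 17 alternative settings. Passage 113 had the highest Rab5a and Rab5b and the lowest Rab5c among the late passages. Rab5c made up 59.3% to 62.4% of the Rab5 sum in MOE LOW, 72.5% and 67.9% in passages 90 and 103, and 58.6% in passage 113, so the shares of the groups overlapped. Of the 50-base words of Rab5b transcripts, 9.80% also occur in the gene model Gm13991. Rab21, which carries integrins inward, had a log2 fold change of -0.37 (limma adjusted p = 0.042) that lost its call in 12 of 17 settings. Rab22a and Rab31, of early endosomes and their traffic with the Golgi, did not pass (-0.23 and 0.06).

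Rab11a, the central Rab of the slow recycling route that returns receptors to the surface, had the smallest standard error of the 43 tested Rabs. Its values in MOE HIGH were within 64.1 to 65.9 FPKM, and in MOE LOW within 122 to 127 FPKM. Its log2 fold change was -0.92 (± 0.087 SE, limma adjusted p = 6.8e-05), a 1.91-fold difference of the means, and it lay between -0.94 and -0.91 when each library was left out in turn. The gene is at chr9:64715299-64737758 on the minus strand, on a chromosome with a median log2 fold change of -0.14. Rab11b was at 16.6, 14.5, 15.6, 12.1, 11.5 and 12.4 FPKM (-0.35, limma adjusted p = 0.018), with a call lost in 6 of 17 settings. Rab25, the epithelial relative of Rab11, stayed at or under 0.321 FPKM. Rab11a was 88.0% to 89.7% of the sum of the 3 genes in MOE LOW against 84.0% to 84.5% in MOE HIGH.

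Both forms of Rab4, which serves fast recycling, fell, with log2 fold changes of -0.67 for Rab4a and -0.68 for Rab4b (limma adjusted p = 0.0043 and 0.0056). Rab4a was at 22.1, 19.5, 20.0, 14.1, 13.6 and 10.1 FPKM, and Rab4b at 44.5, 41.5, 40.5, 28.1, 30.3 and 20.5 FPKM. Here passage 113 was the lowest library, and Rab4b stayed at 66.6% to 69.0% of the Rab4 sum throughout. A same-strand gene model, Gm21983, shares most of the 65.0% of Rab4b exon bases that overlap other genes. Rab12, which sends recycling receptors to lysosomes, fell from 56.1 ± 1.58 to 39.1 ± 0.890 FPKM (-0.51, limma adjusted p = 0.0017). Rab14 and Rab35, of endosome-to-surface transport, did not pass (0.14 and 0.11). Rab14 was at 52.9, 64.5 and 82.9 FPKM in MOE HIGH against 56.1 to 63.1 FPKM in MOE LOW, and its sign turned without passage 113 (-0.03).

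No late endosomal Rab passed the test. Rab7 had a log2 fold change of -0.14 (95% interval -0.38 to 0.10), Rab9, of transport from late endosomes to the Golgi, of 0.10 (-0.23 to 0.42), and Rab24, linked to autophagy, of -0.06 (-0.28 to 0.16). These intervals leave room for changes of that size in either direction. For Rab24, 62.4% of exon bases overlap Prelid1 on the other strand, and 11.2% of the 50-base words of Rab7 occur also in pseudogenes.

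**Figure D3:**
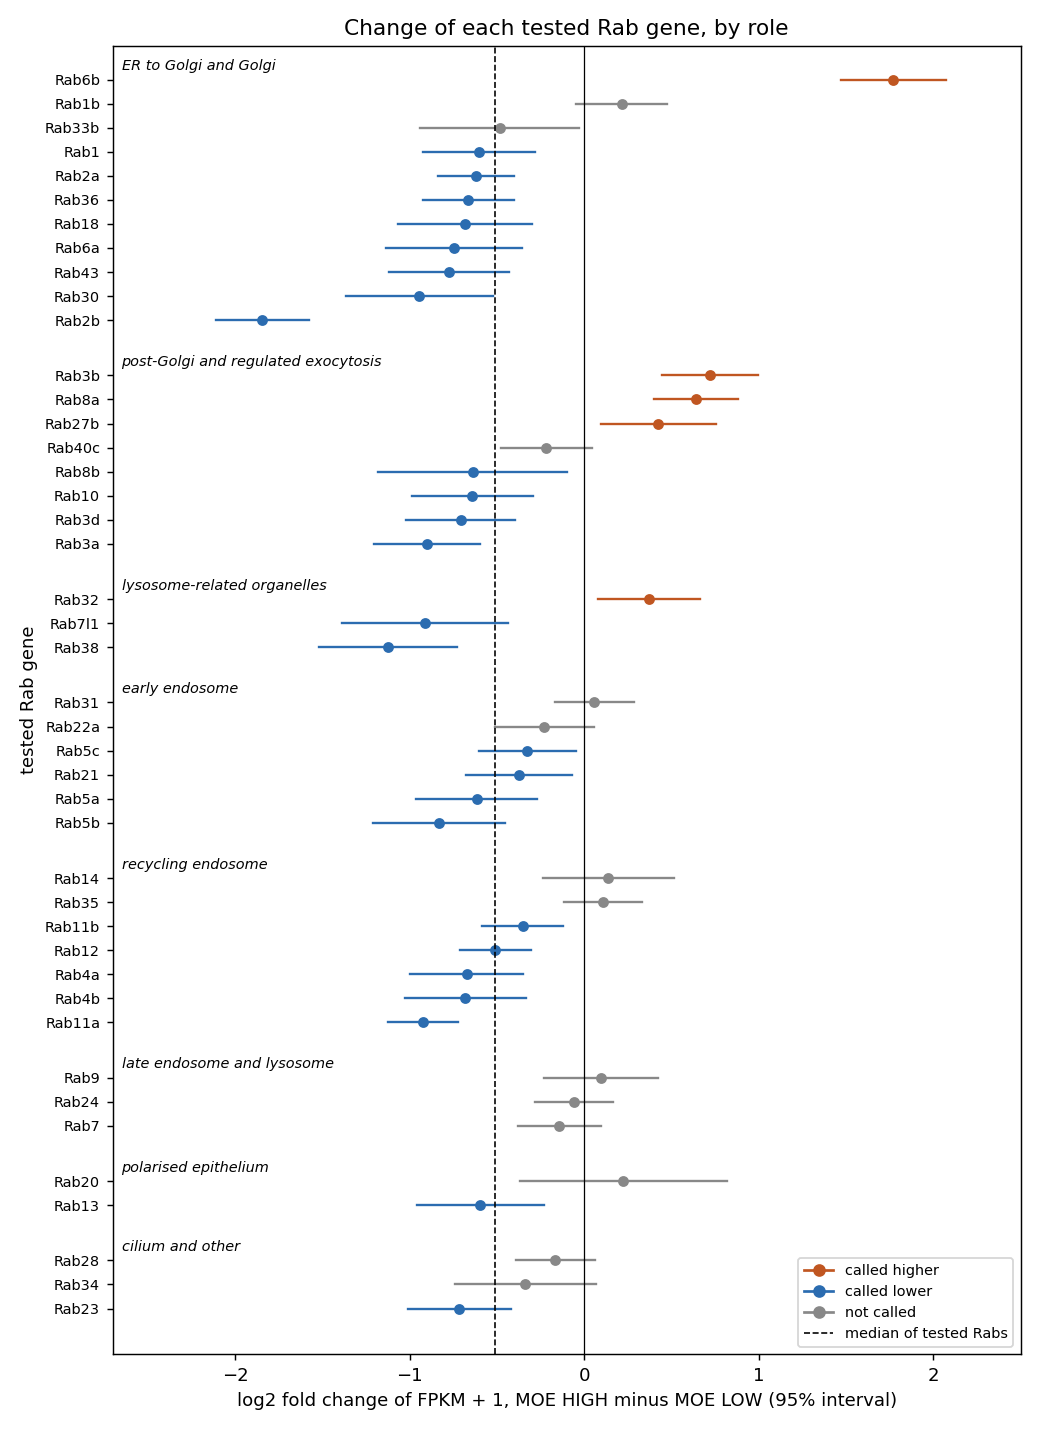
Log2 fold change on the log2(FPKM + 1) scale, MOE HIGH minus MOE LOW, of the 43 tested Rabs with 95% intervals from limma, by route. Blue marks genes called lower, orange genes called higher and grey genes that did not pass, and the dashed line is the median of the tested Rabs (-0.51). Blue points are 8 of 11 in the Golgi group, 4 of 6 in early and 5 of 7 in recycling endosomes, the 3 late endosomal Rabs are grey near 0, and Rab2b (-1.84) and Rab6b (1.77) are the outermost points.

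Of the 4 Rabs tied to polarised epithelium, 2 were expressed. Rab13, which serves tight junctions, was at 16.3, 16.9 and 18.8 FPKM in MOE LOW against 11.2, 13.8 and 8.85 FPKM in MOE HIGH and fell (log2 fold change -0.59, ± 0.16 SE, limma adjusted p = 0.013). Its call was lost without passage 10. Rab20, found on endosomes and phagosomes and at the apical side of epithelia, was at 10.1, 10.0, 7.83, 13.4, 14.3 and 6.77 FPKM and did not pass (0.22, 95% interval -0.37 to 0.82). Passage 113 lay below all other libraries, and without it the change was 0.54 (limma adjusted p = 0.0087). Rab17 and Rab25, of apical recycling in polarised cells, were near the floor. Rab17 was listed at 0, 0.0458, 0, 0.0908, 0.288 and 0.153 FPKM, and Rab25 at 0.0812, 0, 0.0735, 0.231, 0.321 and 0.124 FPKM. Every MOE HIGH value was above every MOE LOW value for both, and with no minimum both were called higher (limma adjusted p = 0.032 and 0.033). These low levels stood beside the low Epcam, Cdh1 and claudin values given above.

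Among the 3 remaining Rabs, Rab23, a regulator of Hedgehog signalling at the primary cilium, fell from 11.5 ± 0.534 to 6.67 ± 1.05 FPKM (log2 fold change -0.72, limma adjusted p = 0.0019). Rab34 and Rab28, also linked to cilia, did not pass (-0.34 and -0.17). Rab34 was at 65.0 FPKM in passage 90, within the MOE LOW range, and at 38.9 FPKM in passage 113.

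The 14 untested Rabs were all at or under 1.26 FPKM. Besides Rab27a, Rab17, Rab25 and Rab3c they were Rab40b, Rab33a, Rab39b, Rab39, Rab19, Rab15, Rab26, Rab37, Rab44 and Rab9b. Rab40b was at 0.729, 0.789, 0.561, 0.0312 and 0.0653 FPKM and then listed at 0, and Rab15, an early and recycling endosome Rab of neurons, at 0.414, 0.363 and 0.190 FPKM in MOE LOW against 0 in all 3 MOE HIGH libraries. Rab9b was listed at 0 in every library. With no minimum, 7 of the 13 that could then be fitted were called lower (Rab15, Rab19, Rab27a, Rab33a, Rab39b, Rab40b and Rab44), 2 higher and 4 neither. Of all genes fitted with no minimum, 27.4% were lower and 17.6% higher.

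Within MOE HIGH, passage 113 stood apart for many Rabs. Of the 25 lower Rabs, 15 had their highest MOE HIGH value there, and 5 each in passages 90 and 103. The same count was not made over all lower genes, so it is not shown to be particular to Rabs. The summed FPKM of all genes was also lowest in passage 113, at 597161, against 770438 and 720193 in passages 90 and 103. For Rab8b, Rab6a, Rab18, Rab5b and Rab10, passage 113 lay between the other late passages and MOE LOW. Other Rabs went further from MOE LOW in that library, among them Rab4a, Rab4b, Rab13 and Rab34. Without passage 113 the Rabs counted 4 higher, of which 3 were secretory and the other was Rab20, and 26 lower, where 28.5% and 37.5% of all genes then tested were higher and lower.

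The genes that act on Rabs were counted on 7 lists with 160 genes in the files. Of the 141 tested, 48 were lower (34.0%), 19 were higher (13.5%) and 74 did not pass, with a median log2 fold change of -0.14. The share of lower calls was near the 32.1% of all genes, and that of higher calls was below their 24.3%. Genes of these lists are named where they averaged at least 5 FPKM, unless a lower level is stated.

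Of 8 genes for prenylation and recycling of Rabs, 4 were lower (50%, against 32.1% of all genes) and 1 was higher (12.5%, against 24.3%). Rab geranylgeranyl transferase attaches the lipid, and its subunits went opposite ways: Rabggtb, the catalytic beta subunit, was at 47.0, 56.4, 44.7, 93.4, 85.6 and 92.5 FPKM (log2 fold change 0.87, limma adjusted p = 0.00042), and Rabggta, the alpha subunit, at 8.76, 8.63, 7.81, 5.87, 5.57 and 4.37 FPKM (-0.59, limma adjusted p = 0.0052). Rabac1, which frees prenylated Rabs from GDP dissociation inhibitor at the membrane, fell the most of this list, at 114, 102, 85.7, 47.7, 43.8 and 33.5 FPKM (-1.26, limma adjusted p = 0.00036). Icmt, the methyltransferase of the prenylated end, also fell (-0.51). Gdi2, the most abundant gene of the list, was just outside the threshold at 202, 199, 192, 165, 154 and 175 FPKM (-0.26, limma adjusted p = 0.051), and the escort protein genes Chm and Chml did not pass (0.01 and 0.44).

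Of 30 tested exchange factors 5 were higher (16.7%, against 24.3% of all genes) and 6 were lower (20.0%, against 32.1%). Als2cl, a relative of the Rab5 exchange factor alsin, rose from 4.69, 5.92 and 4.34 to 20.5, 17.4 and 18.3 FPKM (log2 fold change 1.73, limma adjusted p = 2.2e-05). The Rab5 exchange factor genes Rin1 and Gapvd1 rose as well (0.82 and 0.38), while another, Rabgef1, fell (-0.53), as did Dennd5a (-0.72) and Dennd2a (-0.55). Under 5 FPKM, Rin2, a relative of Rin1, had the largest fall of the list, from 2.46 ± 0.413 to 0.152 ± 0.0698 FPKM (-1.58, limma adjusted p = 2.5e-05), and Madd, an exchange factor of Rab3 and Rab27, rose (0.87). Rin2 reached the minimum of 0.5 FPKM only through MOE LOW and so had to differ. In the TRAPP complex, which activates Rab1, 5 of 11 tested subunits were lower (45.5%, against 32.1% of all genes), led by Trappc6a (-0.69), Trappc9 (-0.68) and Trappc6b (-0.62). Trappc5 was the only higher subunit (0.55), or 9.09% against 24.3%. Of 33 tested GTPase-activating proteins 9 were lower (27.3%) and 5 higher (15.2%). Tbc1d1, a regulator of glucose transporter traffic, fell the most of those averaging at least 5 FPKM, from 32.3, 32.4 and 28.9 to 11.6, 10.1 and 9.73 FPKM (-1.49, limma adjusted p = 1.8e-05), followed by Tbc1d9b (-1.01) and Tbc1d19 (-0.91). Usp6nl, which turns off Rab5, rose (0.94), as did Tbc1d12 (0.85) and Tbc1d10b (0.32), the last with a call lost in 8 of 17 alternative settings. Tbc1d4, the close relative of Tbc1d1, had the largest rise of the list at a lower level, from 0.793 ± 0.158 to 4.26 ± 1.09 FPKM (1.53, limma adjusted p = 0.00018).

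Effectors of secretory Rabs held the largest falls. Sytl1, a synaptotagmin-like effector of Rab27, was at 24.2, 18.6 and 15.5 FPKM in MOE LOW against 0.418, 0.175 and 0.193 FPKM in MOE HIGH (log2 fold change -4.00, limma adjusted p = 1.2e-06). Mical1, an actin-oxidising enzyme that binds Rab8 and other Rabs, was at 11.8, 10.1, 11.3, 0.828, 1.27 and 0.626 FPKM (-2.67, limma adjusted p = 4.2e-06). In both, every MOE HIGH library was far below every MOE LOW library. Micall1, a related effector in recycling, fell too (-1.20), while its relative Micall2, a Rab13 effector at cell junctions, and Kif20a, a mitotic kinesin that binds Rab6, rose (0.89 and 0.36). Rph3al, at about 1 FPKM or less, was the other gene that rose (0.61). Sytl1 reached the minimum of 0.5 FPKM only through MOE LOW and Rph3al only through MOE HIGH, and such genes had to differ. In all, 10 of 22 tested were lower (45.5%, against 32.1% of all genes) and 3 were higher (13.6%, against 24.3%). The exocyst, a tether at the plasma membrane that Rabs recruit, had 4 lower subunits of 9 (44.4%, against 32.1%) and 0 higher (against 24.3%). Its median log2 fold change was -0.06, near the -0.05 of all genes tested. Exoc2 was at -0.52, Exoc4 at -0.50 and Exoc5 at -0.50, and the call of Exoc5 was lost in 8 of 17 settings.

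Endosomal effectors had 10 lower (35.7%, near the 32.1% of all genes) and 4 higher (14.3%, against 24.3%) of 28 tested. Among genes averaging at least 5 FPKM the falls were led by Rilpl1 (-1.48), Rab11fip5 (-0.78) and Rilpl2 (-0.50). Rilpl1 and Rilpl2 belong to the family of the lysosomal effector RILP and bind Rabs at the cilium, and Rab11fip5 links Rab11 to its cargo. At a lower level Fyco1, a Rab7 effector that binds kinesin, fell as well (-1.01). The largest rise was that of Rab11fip1, another Rab11 effector, from 2.15 ± 0.255 to 5.32 ± 0.927 FPKM (0.995, limma adjusted p = 0.00062). The other rises were in Plekhm1, a Rab7 effector (0.77), and in Vps16 (0.62) and Vps18 (0.54), core subunits of the tethers of endosomes and lysosomes, and the call of Vps18 was lost in 6 of 17 settings.

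**Figure D4:**
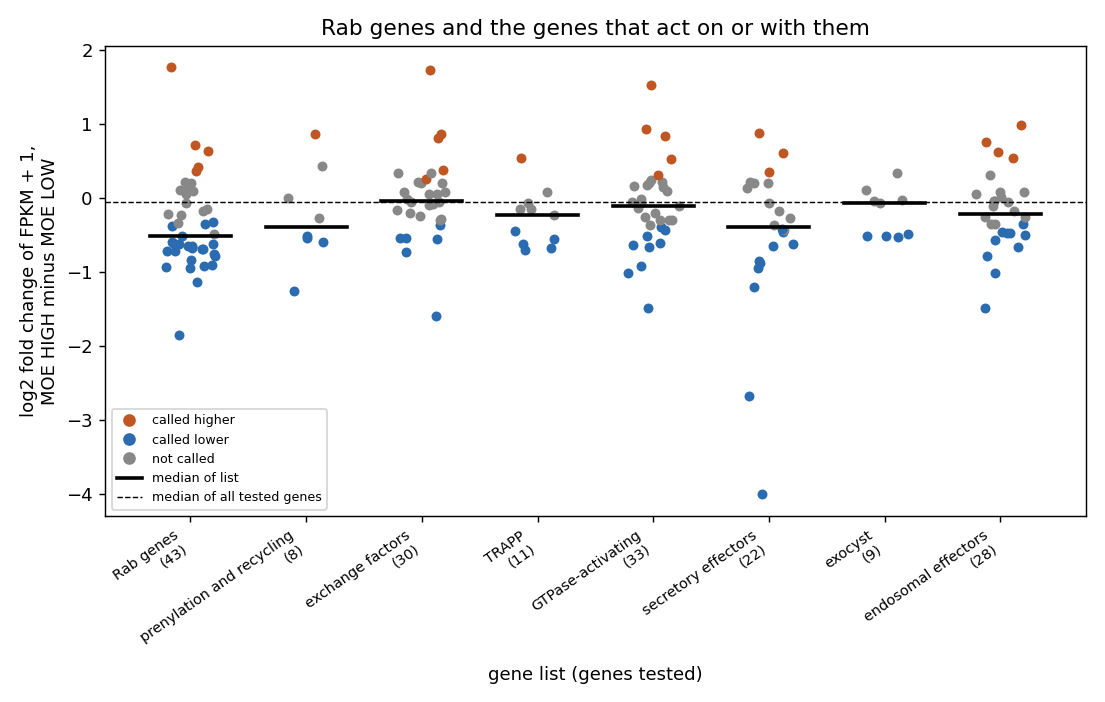
Log2 fold change on the log2(FPKM + 1) scale, MOE HIGH minus MOE LOW, of the tested Rab genes and of the 7 lists of genes that act on or with them. Each point is a gene, coloured by its call, short bars are list medians and the dashed line is the median of all tested genes (-0.05). The Rab genes have the lowest median (-0.51), and the lowest single points are Sytl1 (-4.00) and Mical1 (-2.67) among the secretory effectors.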

How the data were processed

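Total RNA depleted of ribosomal RNA was sequenced in strand-specific libraries of 6 passages. Per the labels and the study's methods, the authors aligned reads to mm10 (GRCm38) with TopHat2 2.0.8b and deposited FPKM per gene from Cufflinks and Cuffdiff 2.1.1 over UCSC annotation. Column headings named other passages, so passages were taken from the sample records. The number of reads is unknown, which limits the precision that can be given. Repeated symbols were represented by the entry with the highest mean (236 symbols). Testing used limma (3.58.1, R 4.3.3) with a mean-variance trend, and a log2 fold change of FPKM + 1 understates changes of low genes. No count test was run. Tested on simulated data for MOE HIGH against MOE LOW, with 200 changed genes among 11620, it recovered 29.9% of genes changed 1.5-fold, 67.2% of those changed 2-fold and 98.5% of those changed 4-fold, with 3.7% of calls false. In the data 24.3% of genes were called higher and 32.1% lower, far more than were changed in the simulation. Recovery and the false share depend on how many genes change, so these figures do not carry over to the data. Positions and overlaps came from GENCODE M21 and promoters from RefSeq, with Python 3.11.15. The symbol Rab1 could not be matched to 1 current gene and has no position here.

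The Rab genes, the gene lists and the tests were chosen with earlier results of these data known. Values of all 6 libraries were to be given for called Rabs averaging at least 5 FPKM that changed by at least 0.8, epithelial Rabs, the Rab3, Rab5, Rab11 and Rab27 sets and the 5 highest means. Of the machinery lists, up to 3 called genes per direction averaging at least 5 FPKM, and every prenylation gene, were to be named. The values of 1 prenylation gene are not reported here. Library values of other Rabs, and Tox4, Mrpl48, Rin2, Madd, Tbc1d4, Rab11fip1, Fyco1 and Rph3al, were added after their values were seen. Alternatives were pseudocounts of 0.1 and 0.01, no minimum, a mean of at least 5 FPKM, 4 scalings, a threshold of 0.01, testing against 2-fold, blocking on replicate number, and omitting each library in turn.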

Additional observations from a re-analysis of the deposited data

How the results depend on the processing

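No called Rab changed direction under any of the alternatives in which it was tested, and 22 of the 30 calls were lost under at most 1 of these. Settings in which a gene was no longer tested were not counted as losses. Rab3b was tested in 13 of the 17 alternatives, and called Rabs averaging under 5 FPKM were not tested with a mean of at least 5 FPKM. The 5 higher and 25 lower Rabs became 2 higher with a mean of at least 5 FPKM (7 lower secretory Rabs, fewer genes tested), 3 higher with libraries scaled to equal totals and 3 at an adjusted p of 0.01, all of them secretory in these 3 settings. Of all genes tested, 27.5%, 19.4% and 16.6% were higher in these settings, in that order. Against a 2-fold change, 1 of 43 Rabs was higher (Rab6b) and 1 lower (Rab2b), both secretory, where 2.61% of all genes were higher and 7.8% lower. The share of lower Rabs was thus below that of all genes in this setting. In it 0 endosomal Rabs were lower (16 were tested, 12 of them with a negative value), and 1 machinery gene was higher and 4 lower. Leaving out each library in turn gave 2 to 4 higher and 20 to 26 lower Rabs, 2 to 4 higher secretory Rabs (3 of 4 higher Rabs without passage 113), and 39 to 59 lower machinery genes. Of all genes, 19.2% to 28.5% were then higher and 26.4% to 37.5% lower. The lowest count of higher Rabs came without passage 103, and 3 remained without passage 9 or passage 10. Quantile normalization moved the median of all genes from -0.05 to 0.10 and the higher share of all calls from 43.1% to 56.7%, with 6 higher and 22 lower Rabs (median -0.35) and 40 higher machinery genes. With it 34.6% of all genes were higher and 26.4% lower. The cause of these changes was not tested. With no minimum, 6 Rabs were higher and 29 lower of 56, where 17.6% of all genes were higher and 27.4% lower. Of the 6, 4 were secretory, the others being Rab17 and Rab25. The signs of 3 Rabs that did not pass turned: Rab14 without passage 113, Rab24 under quantile normalization and Rab31 at equal totals. Libraries with the same number did not deviate together (r = -0.02, -0.15 and 0.12), so the numbers do not pair them. With the replicate block 4 Rabs were higher and 26 lower, as Rab32 lost and Rab33b gained its call, where 25.5% of all genes were higher and 33% lower. Unknown depth limits all values, and most those of Rabs under 1 FPKM.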
